A study of Mus musculus with 4 samples.

Results

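The genes described here are Got1l1, Ptx4, Hdc, Slc27a2, Zfp9, Coro6, Acox3, Tfcp2l1 and Cradd, 9 of the 21883 protein-coding mouse genes considered. They were listed because a very tall MafG peak in mouse liver lay inside or next to them, so they were chosen by the normalized tag count of that peak, which is given as a description, with no test. All listed peaks with a midpoint inside or within 50 kb of each gene were collected, which gave 69 distinct peaks out of 68763. Hdc and Slc27a2 are neighbours and share 5 of these peaks, the tallest among them, so the 9 genes have 8 distinct tallest peaks.

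Chromatin immunoprecipitation with sequencing was used on liver from C57BL6/J mice, with an antibody against the Avi-tag, also called BLRP, a short peptide that a biotin ligase recognises. The treatment label read Ad BLRP MAFG for 2 libraries and Ad BLRP Control for the other 2. MafG was overexpressed and tagged in the BLRP-MafG libraries, and no library profiles the binding of MafG at its native level. The list of peaks compares 1 tag collection of each group, with 20406492 BLRP-MafG tags and an implied 1.72e+07 control tags, and the headers do not say if a collection holds 1 library or both. There is therefore no spread between animals, and every interval below is an exact 95% interval that covers counting error only. A list of peaks holds no expression values, so the liver label could not be checked against marker genes, and no statement here concerns expression.

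MafG belongs to the small MAF proteins, leucine zipper factors with no activation domain of their own. It binds DNA as a pair with itself or with cap'n'collar factors such as NRF2 and BACH1, at MAF recognition elements and antioxidant response elements. In liver such pairs are best known for genes of antioxidant defence, haem and xenobiotic metabolism, and the title of the series frames MafG as a repressor of bile acid synthesis. The listed genes belong to no common pathway: they encode metabolic enzymes (Slc27a2, Acox3, Hdc, Got1l1), nuclear proteins (Tfcp2l1, Zfp9), a death adaptor (Cradd), an actin-binding protein (Coro6) and a secreted protein of the pentraxin family (Ptx4). Slc27a2, Acox3 and Cradd have roles known in hepatocytes, and for the rest no liver role is stated here.

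The 8 tallest peaks spanned a narrow range of height. Their normalized tag counts, the BLRP-MafG tags in a peak scaled to 10000000 tags in total, ran from 527.3 at Cradd to 727.7 at Got1l1, against a median of 12.3 over all listed peaks. They took ranks 10, 11, 14, 18, 21, 24, 33 and 42. All 9 genes had a peak of at least 200 within 50 kb, as did 5.47% of all protein-coding genes, and nothing is read from this, because the height chose the genes. Another 58 genes had a peak at least as tall as that of Cradd within 50 kb (0.306% of all protein-coding genes, the 9 included). The peak just above that of Cradd in the list had 530.7 and the peak just below it 525.8, and neither belongs to a listed gene.

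**Figure D1:**
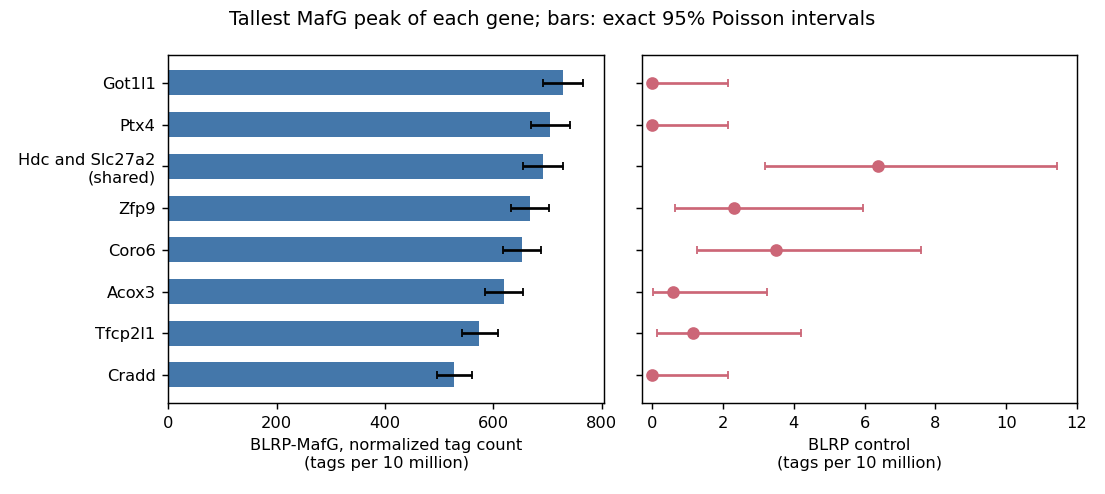
Left, normalized tag count (BLRP-MafG tags per 10000000) of the tallest peak of each gene, from 727.7 at Got1l1 to 527.3 at Cradd, with exact 95% Poisson intervals as error bars. Right, control tags per 10000000 in the same 8 peaks with the same kind of interval, from 0 at Got1l1, Ptx4 and Cradd to 6.39 at the peak shared by Hdc and Slc27a2.

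With each tag counted as independent, the intervals separated the ends of this order but not its neighbours. Tags at repeated positions, described below with the peak score, would make these intervals too narrow. The intervals of all 7 neighbouring pairs in the order overlapped, and those of 13 of the 28 pairs did. The interval of Got1l1 (691 to 766) lay above those of Coro6 (618 to 688), Acox3 (585 to 654), Tfcp2l1 (541 to 608) and Cradd (496 to 560). The plot of tallest peaks with their control tags shows that the control did not follow this order.

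Slc27a2 encodes a very long-chain acyl-CoA synthetase and fatty acid transport protein, abundant in liver, which also activates bile acid precursors. The gene lies at chr2:126553024-126588243 (mm10, plus strand). Its tallest peak, of 691 (655 to 728), stood at chr2:126591408-126591608, 3265 bp past the end of the gene. The BLRP-MafG tags there were 1410 and the control tags 11, a ratio of 108 (60.2 to 217) after scaling to the totals. This peak lay closer to Hdc, so Slc27a2 was the only one of the 9 genes that was not the nearest protein-coding gene to its own tallest peak.

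A smaller peak covered the promoter of Slc27a2. It had a normalized tag count of 10.8 (6.76 to 16.3) at chr2:126552730-126552930, with a midpoint 194 bp before the start and 1 control tag, for a ratio of 18.6 (3.00 to 766). The 250 bases before the start (RefSeq, GRCm38.p6, plus strand, chr2:126552774-126553023) are shown because this was the only one of the 7 promoters listed for these genes that a peak overlapped, and the capitals mark the 157 bases inside the peak:
Slc27a2: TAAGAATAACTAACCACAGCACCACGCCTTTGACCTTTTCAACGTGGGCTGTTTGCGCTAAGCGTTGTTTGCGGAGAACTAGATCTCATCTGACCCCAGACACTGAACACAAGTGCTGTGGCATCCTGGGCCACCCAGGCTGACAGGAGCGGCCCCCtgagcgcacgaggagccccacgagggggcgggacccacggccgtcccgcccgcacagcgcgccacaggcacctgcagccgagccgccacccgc
Of all 32851 promoters 9.02% were overlapped by a listed peak, so 1 of these 7 says nothing particular. None of the 6 MAF, antioxidant and AP-1 type motifs searched matched the promoter of Slc27a2. Inside the gene stood peaks of 46.1 (37.2 to 56.4) and 6.37 (3.39 to 10.9). If only peaks for which Slc27a2 is the nearest gene are counted, its tallest is the one of 46.1, at chr2:126579362-126579562, where 1 control tag made the ratio 79.3 (13.9 to 3165).

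Hdc encodes histidine decarboxylase, the enzyme that makes histamine, best known from mast cells and the gastric mucosa. The gene lies at chr2:126593659-126624025 on the minus strand, so Hdc and Slc27a2 point towards each other and their ends are 5416 bp apart. The shared peak of 691 lay between these ends, 2151 bp past the end of Hdc and 27170 bp from its listed start. Of the tallest peaks it had the most control tags, 11, where 71 of all 68763 peaks had 10 or more. A second peak of 51.9 (42.5 to 62.8), at chr2:126596417-126596617, lay inside Hdc, 5.01 kb from the shared one, where 1 control tag made the ratio 89.4 (15.7 to 3565). The remaining peaks within 50 kb of Hdc were those in and before Slc27a2.

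Acox3 encodes a peroxisomal acyl-CoA oxidase that acts on branched-chain substrates such as pristanoyl-CoA. The gene lies at chr5:35582981-35614208 (plus strand), and its tallest peak, of 618.9 (585 to 654), stood inside it at chr5:35591641-35591841, 8707 bp after the start. The tags were 1263 against 1 in the control, which is a ratio of 1065 (191 to 42112); counting 3 control tags in place of 1 gives 355. A second, lower peak of 14.2 (9.52 to 20.4) lay inside the gene near its end. The second tallest within 50 kb, of 132.8 (117 to 150) at chr5:35552577-35552777, was also the highest secondary peak of any of the 9 genes. It lay 30304 bp before Acox3 but 3531 bp from Trmt44, a tRNA methyltransferase gene.

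A low peak near Acox3 covered the promoter of Trmt44. It had a count of 6.37 (3.39 to 10.9) at chr5:35575055-35575255, 7879 bp before the Acox3 start, with 1 control tag. The 250 bases before the Trmt44 start (RefSeq, GRCm38.p6, minus strand, chr5:35575071-35575320) are shown because they hold the only motif match found in a promoter under a peak of these windows, and the capitals mark that match:
Trmt44: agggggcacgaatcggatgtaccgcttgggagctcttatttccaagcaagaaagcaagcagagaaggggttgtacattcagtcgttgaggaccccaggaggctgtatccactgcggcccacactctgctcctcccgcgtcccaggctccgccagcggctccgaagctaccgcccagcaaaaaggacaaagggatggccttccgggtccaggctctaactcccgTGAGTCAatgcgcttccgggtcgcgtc
The match was to TGANTCA, the core of an AP-1 type element, at bases 224 to 230, inside the part covered by the peak (bases 66 to 250 of those shown). It is a match of letters only, and 7.81% of the 32851 promoters of the table hold one. The promoters of Slc27a2 and Trmt44 were the only ones under a peak of these windows, and 6 motifs were sought in each. Of all promoters under a listed peak 7.39% hold TGANTCA, against 7.85% of the others.

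Got1l1 encodes a relative of the cytosolic aspartate aminotransferase Got1 and is best known from testis. Its position is chr8:27197459-27223845. Its tallest peak, of 727.7 (691 to 766), was the highest of all 9 genes and stood at chr8:27196219-27196419, 1140 bp outside the gene. The tags were 1485 against 0 in the control. With 0 control tags the ratio has only a lower limit, and by the exact interval BLRP-MafG was at least 339-fold higher. Counting 3 control tags, or 1.74 per 10000000, in place of 0 gives a ratio of 418. The next protein-coding gene, Rab11fip1, a gene of an endosome recycling protein, was 21673 bp away. A total of 11 peaks lay within 50 kb, of which 3 low ones, from 6.37 to 14.2, were inside Got1l1. The second tallest, of 43.6 (35.0 to 53.7), lay closer to Eif4ebp1, which encodes a repressor of translation, and had 6 control tags, a ratio of 12.5 (5.53 to 35.0).

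Tfcp2l1 encodes a transcription factor of the CP2 family, known from kidney collecting duct and from pluripotent cells. The gene lies at chr1:118627923-118685168 (plus strand), and, of the 6 genes with a listed start, it was the only one whose tallest peak stood before it. The peak of 573.8 (541 to 608), at chr1:118621160-118621360, lay 6685 bp before the start. The tags were 1171 against 2, which is a ratio of 494 (136 to 4083), and counting 3 control tags gives 329. The next gene, Clasp1, which encodes a microtubule plus-end protein, lay 11798 bp away on the other side. Peaks of 23.0 (16.9 to 30.6) and 22.1 (16.1 to 29.5) lay inside Tfcp2l1, and one of 39.2 (31.1 to 48.8) lay inside Clasp1.

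Zfp9 encodes a zinc-finger protein, and its tallest peak stood close to an end of the gene. The gene spans chr6:118461950-118479961, and the peak, of 666.5 (632 to 703), at chr6:118462176-118462376, with its midpoint 326 bp inside the gene. The tags were 1360 against 4, a ratio of 287 (112 to 1054). This peak had the highest deposited fold over the surrounding 10 kb of the 8, at 802.89 in the authors' deposited table. Only 4 peaks lay within 50 kb, the fewest of the 9 genes. The other peak inside Zfp9 had 5.39 (2.69 to 9.64), and one of 26.0 (19.5 to 34.0) lay inside the neighbouring zinc-finger gene Zfp248.

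Cradd encodes RAIDD, the adaptor that joins Pidd1 to caspase-2 in the PIDDosome, a complex known in liver for limiting the ploidy of hepatocytes. It is the longest of the 9 genes, at chr10:95174739-95324138 (minus strand), and had the most peaks, 20 within 50 kb and 13 inside it. Its tallest peak, of 527.3 (496 to 560), at chr10:95181733-95181933, stood 7094 bp from the end of the gene and 142304 bp from its start. The tags were 1076 against 0, which makes BLRP-MafG at least 246-fold higher by the exact interval, and counting 3 control tags gives 303. No other protein-coding gene lay within 50 kb of this peak: the nearest, Socs2, a suppressor of cytokine signalling, was 202070 bp away.

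The other peaks inside Cradd formed a series of lower ones. The highest 2 were of 82.3 (70.3 to 95.8), with 2 control tags and a ratio of 70.9 (19.3 to 590), and of 65.7 (55.0 to 77.8), with 3 control tags and a ratio of 37.7 (12.6 to 185). The remaining 10 ran from 6.86 to 32.8. More peaks lay within 50 kb of Cradd than of 99.1% of protein-coding genes, but its window is also the longest of the 9, at 249 kb. Per 100 kb the window held 8.02 peaks, against 8.70 at Got1l1 and a median of 3.53 over all protein-coding genes. Over the 9 genes the median was 5.74 and the lowest value 3.39, at Zfp9. The rule gave each of the 9 windows at least 1 peak.

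Coro6 encodes a coronin, an actin-binding protein known from muscle. The gene is short, at chr11:77462321-77470484 (plus strand), and its tallest peak, of 652.2 (618 to 688), stood inside it at chr11:77468504-77468704, 1880 bp from its end. The tags were 1331 against 6, a ratio of 187 (85.7 to 511). Ankrd13b lay 1881 bp from the peak midpoint, so the nearest other protein-coding gene was about as close as the end of Coro6 itself, and the microRNA gene Mir12181 was closer, at 1030 bp. The nearer of the 2 listed Coro6 starts was 4693 bp away. All 7 other peaks within 50 kb lay inside other genes (Ssh2, Git1 and Trp53i13). All 7 had 0 control tags, as did 44.4% of all listed peaks. The highest of the 7, of 69.1 (58.2 to 81.5), was inside Git1. The rest had counts of 14.2 or less, where the caller's 10-fold limit leaves room for few control tags.

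Ptx4 encodes a long pentraxin, a relative of the acute phase protein CRP whose function is little known. At chr17:25120697-25125293 the gene is short, and its tallest peak, of 704.7 (669 to 742), at chr17:25127093-25127293, stood 1900 bp outside it and 6185 bp from Clcn7, which encodes a lysosomal chloride transporter. The tags were 1438 against 0, which makes BLRP-MafG at least 328-fold higher by the exact interval, and counting 3 control tags gives 404. It had the largest step of the 9 genes from the tallest to the next peak, which had 14.2 (9.52 to 20.4) and lay inside Ift140. Ptx4 and Coro6 were the only 2 of the 9 genes for which the tallest peak was the sole peak nearest to the gene.

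The other listed peaks around the tallest ones were of ordinary height. The other 61 distinct peaks had a median of 10.8 (quartiles 7.35 and 23.0) and reached 132.8 at most, against quartiles of 7.84 and 23.5 over the whole list. None of the 61 reached 200, and 6 reached 50. Of the 61, 5 lay within 10 kb of a tallest peak. The caller required a 4-fold excess over the surrounding 10 kb, where a tallest peak adds tags. Lower peaks beside a tallest one may therefore be missing from the list, which was not tested. The peak of 51.9 inside Hdc, 5.01 kb from the shared one, had a deposited local fold of 4.97. The tallest peak stood 4.66 times above the second in Acox3 and 49.6 times above it in Ptx4, the extremes of the 9 genes. In the median gene it held 83.9% of all normalized tags of listed peaks in its window, and in Cradd 53.8%. Over the 18576 protein-coding genes with at least 2 peaks, the median was 43.2%. The height that chose the genes raises their share, and the caller's local limit may do so too, so this is a description.

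**Figure D2:**
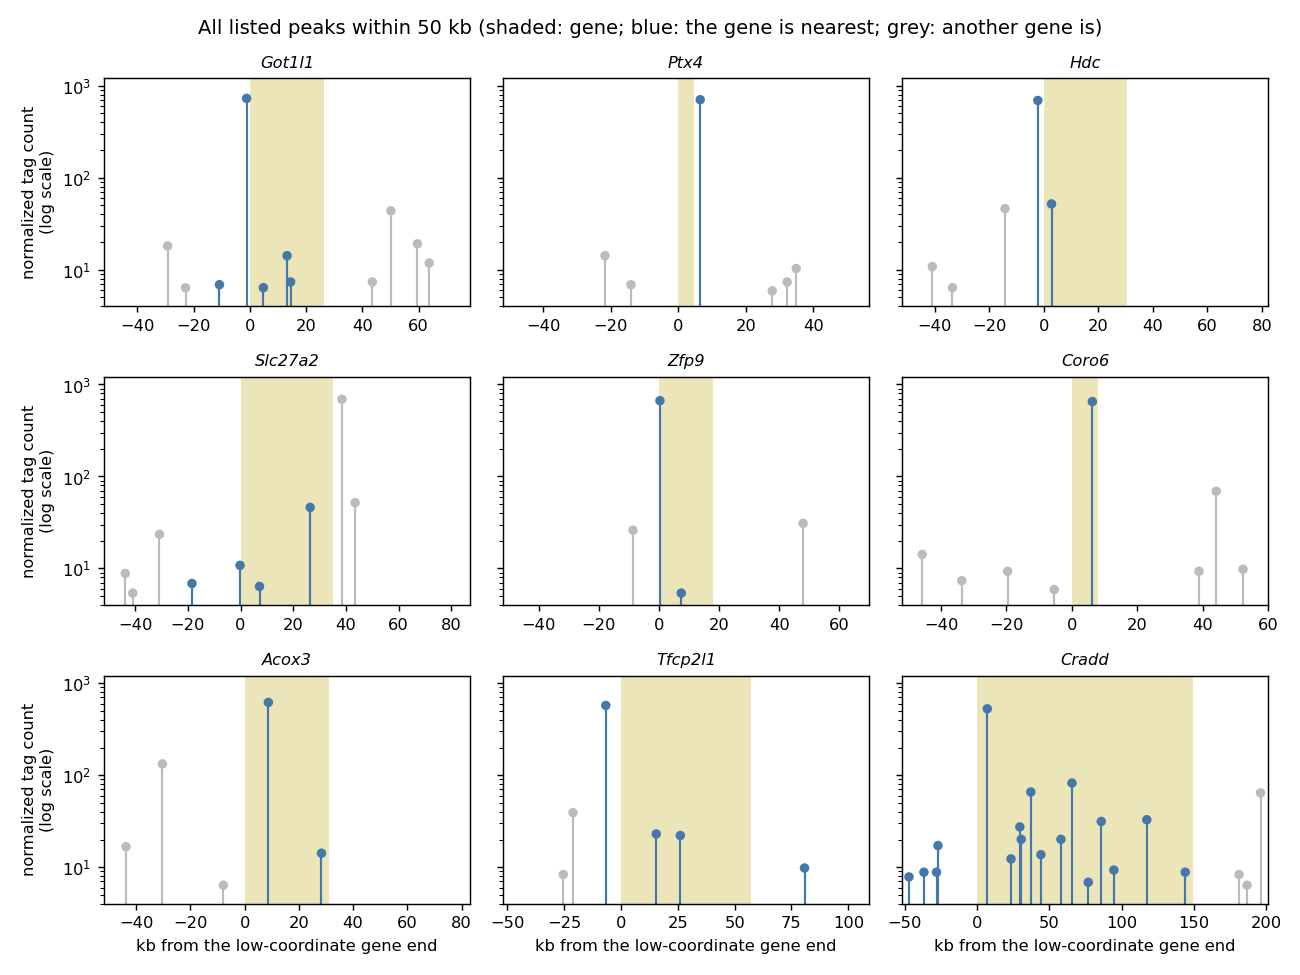
Each panel plots the normalized tag count (log scale) of every listed peak within 50 kb of 1 gene against its distance in kb from the end of the gene with the lower coordinate, the gene shaded, blue where the gene is the nearest protein-coding gene and grey where another is. A single peak above 500 stands in each panel, the next highest is 132.8 (near Acox3), and the tallest peak is grey only for Slc27a2.

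Not all of these peaks belong to the listed genes by distance. Of the 69 peaks, 38 had a listed gene as the nearest protein-coding gene, and 31 lay closer to another, or inside it. All 9 genes had a peak within 50 kb, as 93.5% of protein-coding genes did, and the median number was 6 against 5 (quartiles 3 and 7). Of the tallest peaks, those of Zfp9, Coro6, Acox3 and Cradd lay inside the gene. Whether a peak lies in an exon or an intron was not determined, because the gene table gives only gene ends.

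**Figure D3:**
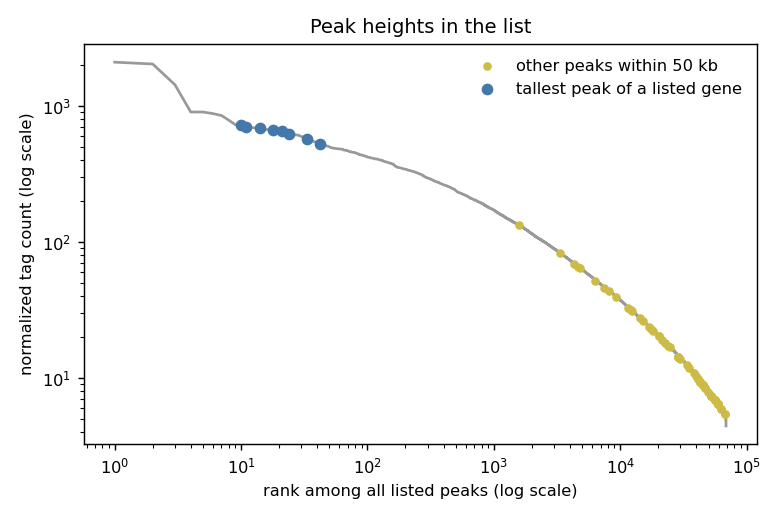
Normalized tag count against rank for all 68763 listed peaks, both axes on a log scale (grey line), with the 8 tallest peaks of the listed genes (blue) and the 61 other peaks within 50 kb of them (yellow). The blue points lie between ranks 10 and 42 and the yellow points at 132.8 and below.

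The control gave few tags at these places, as it did over the whole list. At the 8 tallest peaks it had 0 tags at 3 (Got1l1, Ptx4 and Cradd), 1 at Acox3, 2 at Tfcp2l1, 4 at Zfp9, 6 at Coro6 and 11 at the peak of Hdc and Slc27a2. Of the 736 peaks of at least 200 tags in the list, 131 (17.8%) had 0 control tags and the median was 2. Over all listed peaks 44.4% had 0 control tags and the median was 1, against a median of 1.5 at the 8 tallest. The control at the tallest peaks was thus not unusually low. The caller kept only peaks with a 10-fold excess over control, which limits the control count most at the lower peaks. At the 8 tallest peaks the deposited fold over control was 108.13 or more, far above that limit. The lower bound of the ratio to control was above 10 at all 8 tallest peaks and at 9 of the other 61. For most of the smaller peaks the ratio is therefore known only roughly. The height that chose the 8 peaks also raised their bounds, so the contrast with the other 61 is a description.

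The deposited peak score gave a flatter order than the tag count. In making the list at most 1 tag per bp was considered, per the file headers, and the score was read here as a tag number under that limit. The reading is only approximate, because some peaks scored above their tag number, with 0.75 tags per unit of score at the lowest. The 8 tallest peaks scored from 282 (Tfcp2l1) to 341 (Ptx4), close to the highest score in the list, 389. They held 3.36 (Cradd) to 4.74 (Got1l1) BLRP-MafG tags per unit of score, against a median of 1.13 over all peaks and 2.28 over the 736 peaks of at least 200. The tag count chose the genes, and a score under such a limit levels off at high counts. A high number of tags per unit of score thus follows from the choice and is a description. By score Ptx4 stood at rank 12 and Zfp9 at rank 14, while Got1l1, the highest by tags, stood at rank 49 and Tfcp2l1 at rank 168. Got1l1 scored 313, above Tfcp2l1 but below Coro6 (335), Acox3 (324) and Cradd (320), so the order by tags did not hold by score. On this reading of the score, tags at repeated positions entered the heights of all 8, and their part in the order was not tested.

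**Figure D4:**
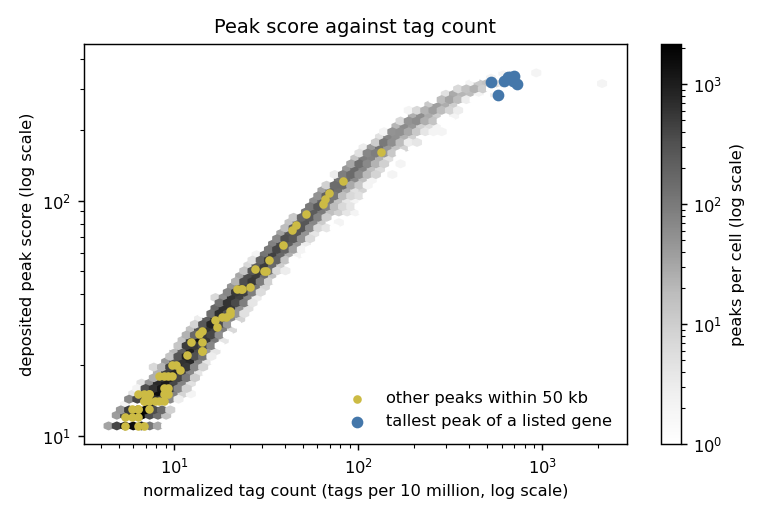
Deposited peak score against normalized tag count for all listed peaks, both on a log scale, with the number of peaks per cell in grey, the 8 tallest peaks in blue and the 61 others of the same windows in yellow. The grey cloud bends at high counts, and the blue points lie at scores of 282 to 341.

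The fold over the surrounding 10 kb gave another order. In the authors' deposited table it ran from 223.59 at the peak of Hdc and Slc27a2 to 802.89 at Zfp9 over the 8 tallest peaks, with a median of 228 over all peaks of at least 200 tags. By this value Zfp9 ranked 15 in the list, Tfcp2l1 90, Got1l1 98 and the peak of Hdc and Slc27a2 1015.

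The promoters of the listed genes held none of the motifs searched. Promoter sequences (250 bp before to 50 bp after a start, RefSeq, GRCm38.p6) were matched for 6 of the 9 genes, with 2 starts for Coro6. Exact matches were sought on both strands to TGACNNNGC (the core of an antioxidant response element), TGCTGA (a MAF site of 1 arm), TGANTCA (the AP-1 type core), the NF-E2 type element and both full MAF recognition elements, with a TRE and with a CRE core. The shorter motifs overlap parts of the longer ones. There were 0 matches in the 7 promoters. Over all 32851 promoters, 19.5% hold TGCTGA, 12.4% hold TGACNNNGC and 0.423% hold the NF-E2 type element, and 7 promoters are few against such shares. The tallest peaks themselves lay outside these windows, 4693 bp (Coro6) to 142304 bp (Cradd) from the nearest listed start of the 6 genes, and their sequences were not used here.

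The families and pathways of the listed genes had ordinary peaks. Of 49 related genes in 8 lists, all 49 had a peak within 50 kb (93.5% of all protein-coding genes did). A peak of at least 200 lay within 50 kb of 4 of them (8.16%, against 5.47% of all protein-coding genes). The median of their tallest peaks was 40.7, against 33.8 over all protein-coding genes. These shares lie near the background and say nothing particular about the families.

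Among fatty acid enzymes, the fatty acid transport protein gene Slc27a1 had a peak of 206.3 (187 to 227) 7257 bp outside it. That peak lay closer to Pgls and had 10 control tags. Slc27a4 held a peak of 116 (101 to 131). Slc27a5, the bile acid-CoA ligase gene of liver, had 11.8 (7.54 to 17.5) at most, in a peak closer to Ube2m. In the peroxisomal β-oxidation list 1 of 14 genes besides Acox3 reached 200. This was Abcd3, a peroxisomal membrane transporter gene, whose peak of 258.3 (237 to 281) lay 45298 bp outside it and closer to F3. Acox2, which encodes an acyl-CoA oxidase of bile acid side-chain shortening, had 18.6 (13.2 to 25.6).

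In the histamine list, Hrh3, a histamine receptor gene, came next to Hdc with 63.7 (53.2 to 75.6), in a peak closer to Osbpl2. Hnmt, whose product inactivates histamine, had 26.0 (19.5 to 34.0). Got1 and Got2, the cytosolic and mitochondrial aspartate aminotransferase genes, had 74.0 (62.7 to 86.8) and 51.0 (41.6 to 61.8). These peaks lay closer to Cnnm1 and to Slc38a7. Ptx3 led the other pentraxins with 56.4 (46.5 to 67.6), in a peak closer to Veph1. The acute phase pentraxin genes Apcs and Crp had 17.6 (12.4 to 24.4) and 16.7 (11.5 to 23.3), the latter closer to Dusp23. The highest value in each of these lists was under 200 apart from that of the listed gene.

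Coronins were the list with the most tall peaks: Coro2a held one of 224.4 (204 to 246), and Coro1b had one of 218.6 (199 to 240) that lay 43352 bp outside it and closer to Rad9a. Among the CP2 and grainyhead factors Grhl1 led with 132.3 (117 to 149), nearer to Klf11. Tfcp2, for which the CP2 family is named, had 72.0 (60.9 to 84.7), nearer to Letmd1. For the partners of Cradd, Pidd1 had 167.1 (150 to 186) 5660 bp outside it, closer to Slc25a22. Casp2 had 24.5 (18.2 to 32.3) at 47411 bp, closer to Fam131b.

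**Figure D5:**
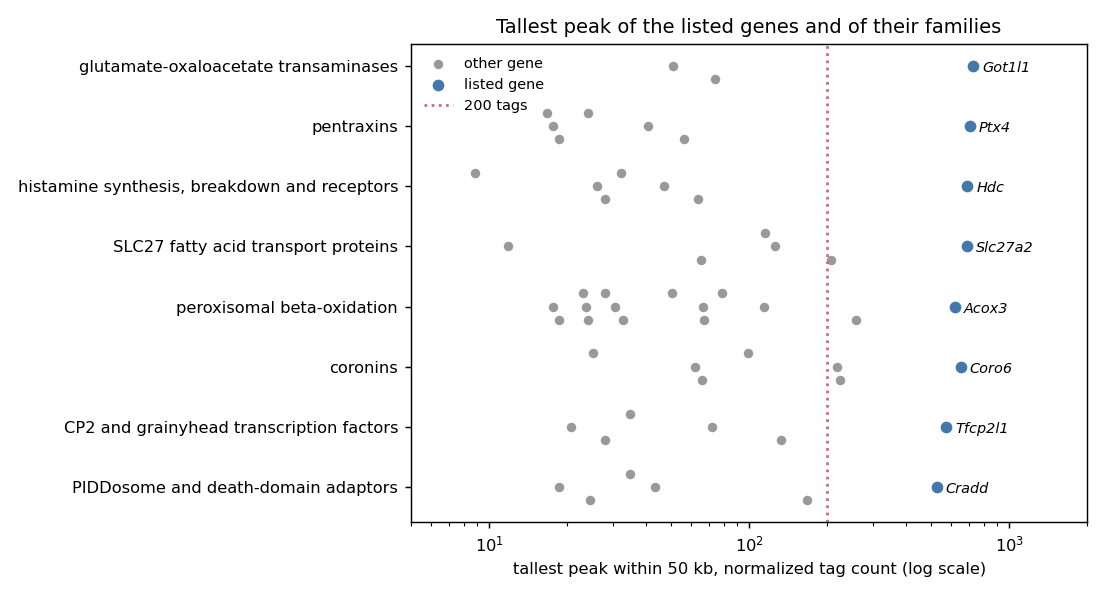
Tallest peak within 50 kb (normalized tag count, log scale) of the listed genes (blue) and of the other genes of their families or pathways (grey), 1 row per list, with a dotted line at 200. The other genes lie at 258.3 and below, and Zfp9 has no list.

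The genes most alike in height, by the rule of taking the next 3 genes below Cradd, were Etl4 (525.8, with 23 peaks within 50 kb), Lsm6 (522.9, with 5) and Fgd6 (515.5, with 14). The likeness is the normalized tag count of 1 peak in 1 pair of tag collections, and the tallest peak lay inside the gene in all 3.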

How the data were processed

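The members and gene lists were chosen with earlier results of these data known. The authors called peaks of 200 bp with HOMER findPeaks on 1 BLRP-MafG tag collection against 1 control collection, per the file headers, requiring a 10-fold excess over control (Poisson p of 1e-06) and 4-fold over the 10 kb around (p of 0.0001). Bowtie2, HOMER and mm10 are named, without versions, in the submitters' processing notes. The deposited normalized tag count is a signal scaled by the authors to 10000000 tags, and the deposited control signal is unscaled, with 0.5 for 0 tags. The deposited peak score, the deposited fold values (linear ratios) and the deposited Poisson p-values come from the caller, and the p-values were not used.

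Normalized tag counts multiplied by the stated total came within 0.102 of whole tags, which gave exact Poisson intervals (95%) and, for ratios, exact conditional binomial intervals, computed with scipy 1.17.1. A ratio against 0 control tags is given by its exact lower limit and against a floor of 3 tags, which is not a limit. Distances run from the peak midpoint to the gene, in RefSeq genes of GRCm38.p6, the assembly of mm10, with coordinates as the files list them. The genes named are the 9 members, the nearest protein-coding genes to their peaks, the gene with the highest peak in each list, the 10 tallest peaks and the 3 genes next below; other list genes were chosen after their values were seen. The list rests on a peak caller's limits, so weaker signal is not seen. The assignment, intervals and motif search were tested on simulated data. Alternatives were other windows, a fold of 20, overlap in place of midpoint, nearest genes only, all genes or start sites, and other floors.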

Additional observations from a re-analysis of the deposited data

How the results depend on the processing

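Counts of peaks depended on the choices, and the heights, by which the genes were chosen, had little room to change. The 69 peaks within 50 kb of the 9 genes became 34 with a window of 10 kb, 104 with 100 kb and 38 when only peaks nearest to a listed gene counted; with a fold over control of at least 20 there were 50. The tallest peak of each gene was the same under every alternative run for it, except that of Slc27a2, which was 46.1 when only nearest peaks counted. Each tallest peak lay within 6663 bp of its gene and had a deposited fold over control of 108.13 or more. The window of 10 kb, the fold of 20 and the overlap rule could therefore not drop it, so this sameness is no measure of robustness. All genes of the table in place of protein-coding genes left 8 of 9 genes nearest to their own tallest peak, and distance to listed starts gave 5 of the 6 genes with one. The median ratio to control over the 9 genes, 303 with a floor of 3 tags, was 494 with a floor of 1 tag or as deposited. In these medians the peak shared by Hdc and Slc27a2 was counted for both genes. Motifs in wider regions were not run, since no genome was used here. No paired analysis was possible because the list holds no value per library, and leaving out a library was not possible either.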

Other observations

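Most of the tallest peaks lay at other genes. Of the 42 peaks at least as tall as that of Cradd, 8 are those of the listed genes. Of the 40 on placed chromosomes, 26 lay inside a protein-coding gene, 8 outside but within 50 kb of one, and 6 farther away. The highest of the list, of 2109, lay inside Sfi1, a centrosome protein gene, and had 60 control tags, and the next, of 2044, lay on an unplaced sequence and had 62. From there the peaks inside Aff3 (1438), Atxn1 (905.6), Esrrb (881.1), Ttn (853.2) and Vipr2 (730.2) had 1 to 5 control tags. Esrrb encodes an orphan nuclear receptor, Ttn the giant sarcomere protein titin and Vipr2 a receptor of vasoactive intestinal peptide. Peaks of 905.6 and 788.5 lay outside genes, nearest to LOC108167340 (11244 bp) and Klhdc7a (26422 bp), each with 3 control tags.

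Of all 32851 promoters, 2964 (9.02%) were overlapped by a listed peak. The antioxidant response element core TGACNNNGC was found in 18.6% of these and in 11.8% of the others, and TGANTCA in 7.39% and 7.85%. These are shares of letters in promoters that share starts and sequence, given with no test.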
